A study of Homo sapiens with 12 samples.

Results

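The forkhead (FOX) and SRY-related HMG-box (SOX) genes encode 2 large families of transcription factors. They were taken here as the protein-coding genes of GENCODE release 44 on hg38 whose symbol is FOX followed by 1 letter from A to S and digits, or SOX followed by digits only. This gave 64 of 20046 protein-coding genes, of which 45 are FOX and 19 are SOX genes. A listed region was assigned to a gene when it overlapped the gene or the 5 kb to either side, which gave 438 of the 158028 listed regions, 160 of H2A.Z and 278 of H2A.Zac. No region was assigned to 2 of the genes.

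The histone variant H2A.Z and its acetylated form, H2A.Zac, were mapped by ChIP-seq in the K562 cell line, which was derived from a human chronic myeloid leukemia. In both lines compared, the endogenous EP400 carried a homozygous degradation tag (dTAG) and was depleted with 500 nM dTAGV-1 for 24 h. One line expressed WT EP400 from the AAVS1 locus and the other expressed ΔTRRAP EP400, which lacks the SANT and HD domains that hold TRRAP in the TIP60 complex. The 12 libraries were 2 replicates each of input, H2A.Z and H2A.Zac in each line. Each line was 1 clone, so that a difference between clones and an effect of the deletion cannot be told apart. The deposited lists hold, for each mark, regions higher in WT (lost in ΔTRRAP), regions higher in ΔTRRAP (gained) and unchanged regions. Each region carries the authors' log10 likelihood ratio of the comparison, which was at least 3 for a changed region. The ratio grows with depth as well as with the change and is not a fold change. Replicates were merged before the comparison, read counts are not in the lists and the depth is unknown here, so no spread between replicates and no test across lines can be given. The intervals below are Wilson 95% intervals and cover counting error only, and neighboring regions are not independent.

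The labels call the cells lymphoblasts. Of 8 markers of erythroid and myeloid leukemia cells, 6 had a region within 1 kb of the transcription start site (TSS), among them KLF1 and TAL1, whereas GATA1 and HBE1 had none. Of 4 B lymphoid markers 1 had a region, EBF1, but all 3 T lymphoid markers had one. These regions show the presence of H2A.Z or H2A.Zac and do not tell the cell types apart.

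FOX proteins bind DNA through a winged-helix domain, and several can open closed chromatin or, as the FOXO proteins do, move in and out of the nucleus in response to insulin signaling. SOX proteins bind the minor groove through an HMG box, bend the DNA and usually act with a partner factor. Both families are best known as regulators of embryonic cell fate, and most members are active in a few tissues each. H2A.Z is a variant of histone H2A found mainly at promoters and enhancers, and TIP60 is a complex that both deposits and acetylates it.

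No listed region of either mark was found at 22 of the 64 genes (34.4%), compared with 17.1% of all protein-coding genes. The lists hold filtered regions, so a gene without one is not shown to lack the marks. The group holds most of the SOX B genes, SOX1, SOX2, SOX3 and SOX14, which act in neural and pluripotent stem cells. It also holds SOX7 and SOX17 of the endothelial and endodermal SOX F group, SOX9 and SOX10 of the SOX E group of cartilage and neural crest, and SOX11. The FOX genes without a region were FOXB2, FOXC2, FOXE1, FOXE3, FOXF1, FOXF2, FOXI1, FOXI2, FOXI3, FOXL3, FOXQ1, FOXR2 and FOXS1, among which FOXF1 and FOXF2 are regulators of mesenchyme. These genes were short. Their median length was 3.67 kb (range, 1.30 to 16.7 kb) against 12.1 kb for the 42 genes with a region, and 12 of them consist of 1 exon. In the window of 1 kb to each side of the TSS, which is the same for every gene, no region of either mark was listed at 32 of the 64 genes (50%), compared with 33.3% of all protein-coding genes.

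At the other 42 genes, both directions were found. For H2A.Z, 19 regions were lost, 26 were gained and 115 were unchanged. Lost regions made up 11.9% (95% interval, 7.74 to 17.8%) of the H2A.Z regions, compared with 16.1% of the regions at all protein-coding genes, and gained regions 16.2% (11.3 to 22.7%), compared with 15.2%. For H2A.Zac, 57 regions were lost, 74 were gained and 147 were unchanged. The lost share was 20.5% (16.2 to 25.6%) against 22.3%, and the gained share 26.6% (21.8 to 32.1%) against 28.2%. The intervals of all 4 shares include the background. Both families changed in both directions. Of 165 H2A.Zac regions at FOX genes, 29 were lost (17.6%) and 49 gained (29.7%), and of 113 at SOX genes, 28 (24.8%) and 25 (22.1%). Of 83 H2A.Z regions at FOX genes, 6 were lost (7.23%) and 15 gained (18.1%), and of 77 at SOX genes, 13 (16.9%) and 11 (14.3%). The intervals of these shares include the background, except for H2A.Z lost at FOX genes (3.36 to 14.9%, against 16.1%). That difference was not tested.

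**Figure D1:**
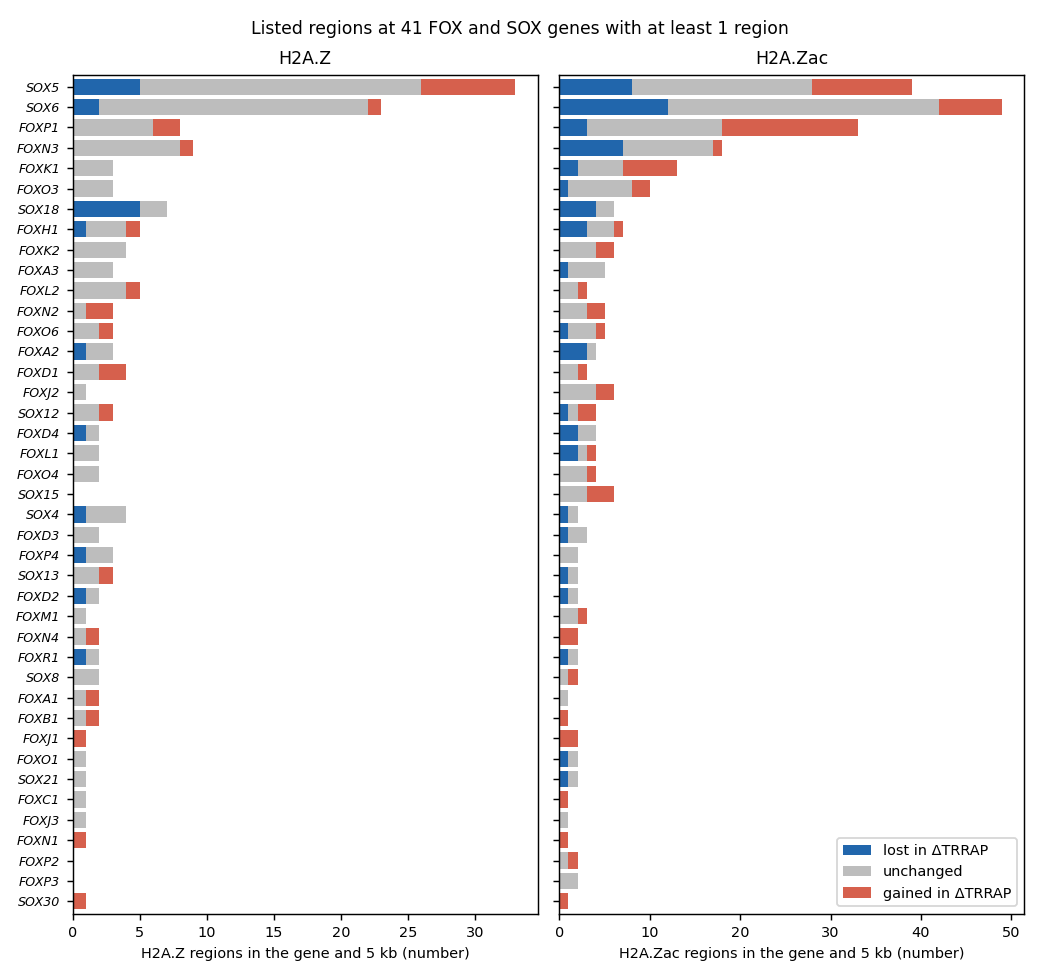
Number of H2A.Z (left) and H2A.Zac (right) regions in 41 of the 42 genes with at least 1 region, 5 kb to each side included, with lost regions in blue, unchanged regions in gray and gained regions in red. SOX5 and SOX6 hold 72 regions each, and 5 of the 7 H2A.Z regions of SOX18 are lost.

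The regions were unevenly spread. SOX5 and SOX6, which are 1033 and 773 kb long, had 72 regions each, FOXP1 had 41 and FOXN3 had 27, and these 4 genes together held 212 regions, or 48.4% of the total. At the remaining genes, 12 H2A.Z regions were lost and 15 gained, and 27 H2A.Zac regions were lost and 40 gained, so that the gained share of the changed regions was 55.6% for H2A.Z and 59.7% for H2A.Zac with these genes left out and 57.8% and 56.5% with them.

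The regions were also divided by their distance from the TSS. For FOX and SOX genes this was the gene's own canonical TSS. For all genes, regions near the canonical TSS of any protein-coding gene were left out. The 2 sets away from the TSS are therefore not defined alike. Among those of FOX and SOX genes, 2 lost, 1 gained and 10 unchanged H2A.Z regions lay within 1 kb of another gene's TSS. So did 2 lost, 8 gained and 15 unchanged H2A.Zac regions. Away from the TSS, 13.8% (8.52 to 21.5%) of the 109 H2A.Z regions at FOX and SOX genes were lost, compared with 24.3% (23.7 to 24.9%) of those at all protein-coding genes. The H2A.Zac shares there were 20.7% (15.8 to 26.6%) of 213 regions and 29.0% (28.5 to 29.5%). Within 1 kb of the canonical TSS the shares lost were 7.84% (3.09 to 18.5%) of 51 H2A.Z regions, against 7.44%, and 20% (12.1 to 31.3%) of 65 H2A.Zac regions, against 13.4%. The gained shares at the TSS were 17.6% (9.57 to 30.3%) for H2A.Z and 24.6% (15.8 to 36.3%) for H2A.Zac, against 15.7% and 30.7%. Among the TSS-distal H2A.Zac regions of FOX and SOX genes 44 were lost and 58 were gained, or 27.2% gained, compared with 26.4% gained at all genes. The difference in the lost share of the distal regions was not tested, as neighboring regions are not independent and 4 genes hold much of the total.

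**Figure D2:**
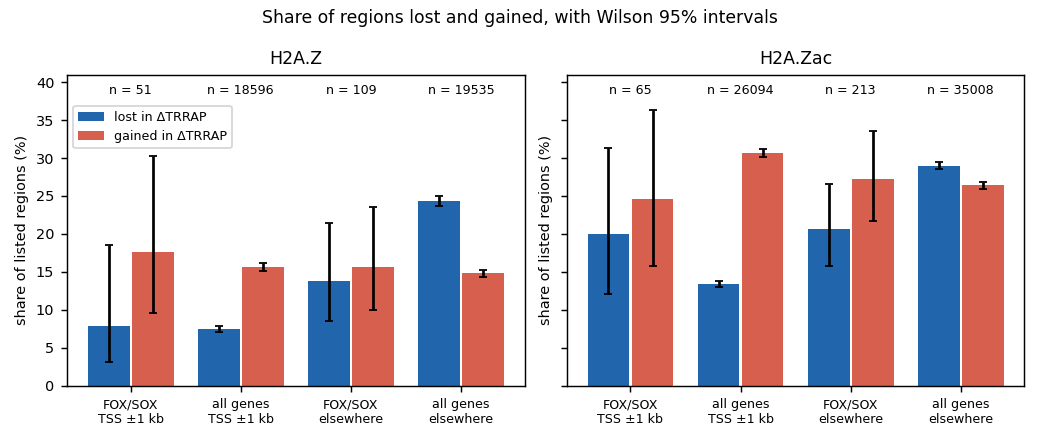
Share of H2A.Z (left) and H2A.Zac (right) regions lost (blue) and gained (red) in ΔTRRAP, within 1 kb of the canonical TSS and elsewhere in the gene and 5 kb, for FOX and SOX genes and for all protein-coding genes. For FOX and SOX genes, elsewhere means over 1 kb from the gene's own canonical TSS. For all genes, it means over 1 kb from the canonical TSS of any protein-coding gene. Error bars are Wilson 95% intervals and n is the number of regions. Away from the TSS, the lost share at FOX and SOX genes is 13.8% for H2A.Z and 20.7% for H2A.Zac, below the 24.3% and 29.0% of all genes.

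Counted by gene, an H2A.Zac region was listed within 1 kb of the TSS of 32 of the 64 genes (50%), compared with 63.9% of all protein-coding genes, and H2A.Z at 31 genes (48.4%), compared with 62.2%. An H2A.Zac region was gained at the TSS of 14 genes (21.9%; 95% interval, 13.5 to 33.4%), while the background was 36.6%. It was lost at 11 genes (17.2%; 9.88 to 28.2%), for which the background was 16.6%. An H2A.Z region was gained at 8 genes (12.5%; 6.47 to 22.8%) and lost at 3 (4.69%; 1.61 to 12.9%), with backgrounds of 13.9% and 6.53%. Among genes with a region of the mark at the TSS, H2A.Zac was gained at 43.8% and lost at 34.4% of the FOX and SOX genes, compared with 57.3% and 26.02% of all such genes, and H2A.Z at 25.8% and 9.68%, compared with 22.3% and 10.5%. Both marks were gained at the TSS of 6 genes (9.38%; all genes, 11%), FOXD1, FOXJ1, FOXN2, FOXN4, FOXO6 and FOXP1, and both were lost at 3 (4.69%; all genes, 5.27%), FOXD2, SOX4 and SOX18. The gained H2A.Z regions at the TSSs of FOXD1, FOXO6 and FOXP1 lay mostly inside unchanged H2A.Z regions, and without such regions H2A.Z was gained at the TSS of 4 genes in place of 8. No gene had H2A.Z lost and gained at its TSS. FOXK1 and FOXO6 had H2A.Zac regions in both directions there.

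**Figure D3:**
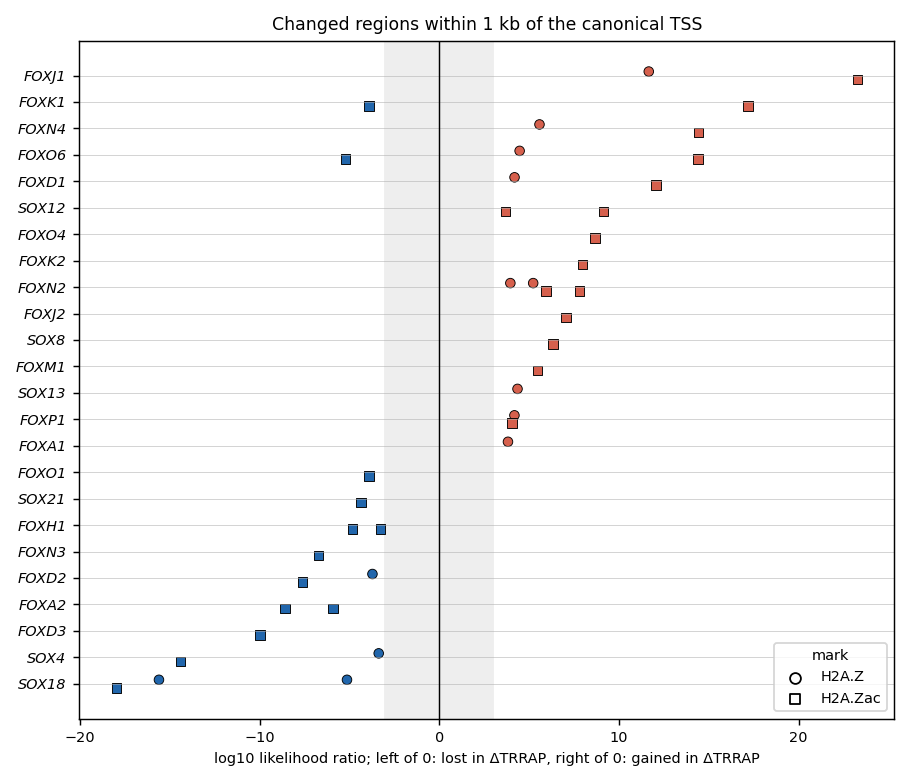
Authors' log10 likelihood ratio of the changed regions within 1 kb of the canonical TSS at 24 FOX and SOX genes, H2A.Z as circles and H2A.Zac as squares, lost regions to the left of 0 and gained regions to the right. The gray band covers ratios under 3, which the lists of changed regions do not hold. FOXJ1 lies farthest to the right, at 23.3 for H2A.Zac, and SOX18 farthest to the left, at 17.98.

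Among the genes that gained both marks, FOXJ1, the regulator of motile cilia, had the highest ratios. Its gene lies on the minus strand of chr17:76136333-76141245. The gained H2A.Zac region, at chr17:76141326-76141801, began 81 bp upstream of the TSS and had a ratio of 23.3, and the gained H2A.Z region covered all of it with a ratio of 11.7. FOXJ1 had no lost and no unchanged region of either mark, and a further H2A.Zac region was gained 8.04 kb from the TSS, downstream of the gene, with a ratio of 11.01. FOXN1, which directs the development of thymic epithelium, and SOX30, which acts in the making of sperm, were the only other genes at which every region of both marks was gained. FOXN4, a factor of retinal and spinal cord precursors, gained H2A.Zac from 323 bp upstream of its TSS with a ratio of 14.4 and H2A.Z farther upstream with a ratio of 5.58. FOXO6 gained H2A.Zac upstream of the TSS with a ratio of 14.4, while a 593-bp region over the TSS itself lost H2A.Zac with a ratio of 5.23. FOXN2 gained 2 regions of each mark, with ratios up to 5.22 for H2A.Z and 7.80 for H2A.Zac.

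FOXD1, a regulator of the kidney stroma, gained H2A.Zac in 1 region of 2756 bp from chr5:73446606-73449361, which spanned the TSS and most of its single exon with a ratio of 12.1. The H2A.Z gains were 2 narrower regions inside it, with ratios of 4.44 in the exon and 4.19 just upstream of the TSS. The 250 bases upstream of the FOXD1 TSS are shown because the gained H2A.Zac region covers all 250 of them and the gained H2A.Z region 139. That H2A.Z region lies entirely inside an unchanged H2A.Z region, which also covers all 250. They lie on the minus strand at chr5:73448778-73449027 (RefSeq, hg38), with the GC-box letters GGGCGG, written CCGCCC as they lie on the other strand, in capitals.
FOXD1: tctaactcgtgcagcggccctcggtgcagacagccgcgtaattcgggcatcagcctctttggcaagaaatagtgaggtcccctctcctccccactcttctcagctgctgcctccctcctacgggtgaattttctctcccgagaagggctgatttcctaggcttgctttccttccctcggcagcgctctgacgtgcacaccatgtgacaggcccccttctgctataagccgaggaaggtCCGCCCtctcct

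Of the genes that lost both marks, SOX18, a regulator of blood and lymphatic vessels, lost the most. At SOX18 (minus strand, chr20:64047582-64049639), 5 of 7 H2A.Z regions and 4 of 6 H2A.Zac regions were lost and none was gained. The lost H2A.Zac region at the TSS was 3065 bp wide and had a ratio of 17.98, and the H2A.Z region that began 179 bp upstream of the TSS had a ratio of 15.6. This stretch also lies within 1 kb of a TSS of TCEA2, a transcription elongation factor gene, and the 2 genes cannot be told apart by position. All changed regions within 1 Mb of SOX18, outside the gene and its 5 kb, were lost as well, 27 of H2A.Z and 42 of H2A.Zac. The loss at SOX18 was thus shared by the regions around it. As each line was 1 clone, a difference between the clones in the number of copies of this stretch and a change of the marks cannot be told apart here.

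SOX4, a SOX C factor needed for B cell development, lost H2A.Zac from 474 bp downstream of its TSS, in a region of 1235 bp at chr6:21594225-21595459 with a ratio of 14.4. The lost H2A.Z region was 306 bp wide, spanned the TSS and had a ratio of 3.37, close to the cutoff. Within 1 Mb around SOX4, 1 of 13 H2A.Z changes was a gain and the others were losses. The H2A.Z loss at SOX4 thus had the direction of most H2A.Z changes around it. For H2A.Zac, 11 of 23 changes were gains, so both directions were found near it. The 250 bases upstream of the SOX4 TSS, chr6:21593501-21593750 on the plus strand (RefSeq, hg38), are shown because the lost H2A.Z region covers 75 of them. The CCAAT box letters are in capitals, written ATTGG where they lie on the other strand. No letters of the other motifs searched are found in it.
SOX4: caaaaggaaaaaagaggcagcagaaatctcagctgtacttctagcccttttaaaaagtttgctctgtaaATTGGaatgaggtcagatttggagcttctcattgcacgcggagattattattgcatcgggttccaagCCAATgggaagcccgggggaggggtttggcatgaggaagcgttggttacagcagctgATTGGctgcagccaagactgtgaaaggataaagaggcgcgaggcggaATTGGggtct

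FOXD2 lost H2A.Zac over its TSS with a ratio of 7.62 and H2A.Z, 221 bp downstream, with a ratio of 3.72. The lost H2A.Z region at FOXD2 lies entirely inside an unchanged H2A.Z region. FOXD3, a factor of neural crest and pluripotent cells, lost H2A.Zac with a ratio of 9.98 in its single exon while its H2A.Z regions were unchanged. FOXA2, a pioneer factor of endoderm and liver, had 3 changed H2A.Zac regions, all lost, in a stretch of 4.03 kb, with ratios of 5.91 to 9.83. Its lost H2A.Z region, 1.89 kb upstream of the TSS, had a ratio of 7.47. FOXA2 is also on chromosome 20. Within 1 Mb around it, 6 of 22 H2A.Z changes and 31 of 55 H2A.Zac changes were gains.

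FOXO1, FOXO3 and FOXO4, effectors of insulin signaling that hold blood stem cells in quiescence, had no changed H2A.Z region. FOXO1 lost a 333-bp H2A.Zac region in exon 1 with a ratio of 3.93, which lies inside an unchanged H2A.Zac region. FOXO4 gained 1 over its TSS with a ratio of 8.65. FOXO3 had unchanged H2A.Zac over the TSS, a gained region 2.39 kb upstream with a ratio of 7.73 and a lost region 1.35 kb downstream in intron 1 with a ratio of 9.39. A second region was gained farther into intron 1, 69.5 kb downstream of the TSS, with a ratio of 4.59. FOXM1, which drives the genes of mitosis, gained H2A.Zac from 71 bp upstream of its TSS with a ratio of 5.47. That region also lies within 1 kb of TSSs of RHNO1 and TULP3. FOXP3, the regulator of regulatory T cells, had 2 unchanged H2A.Zac regions upstream and no region at its TSS. Both regions lie within 1 kb of a TSS of PPP1R3F.

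Genes that act with these factors were also counted by the changes at their TSSs. Of 38 regulators and targets of FOXO and FOXM1, H2A.Zac was gained at 21 (55.3%) and lost at 8 (21.1%), and H2A.Z was gained at 11 (28.9%) and lost at 3 (7.89%). Over all protein-coding genes the shares were 36.6% and 16.6% for H2A.Zac and 13.9% and 6.53% for H2A.Z. Those shares include genes without any region, whereas 36 of these 38 had one. Among genes with an H2A.Zac region at the TSS, it was gained at 58.3% and lost at 22.2% of the list, compared with 57.3% and 26.02% of all such genes. The same shares for H2A.Z were 32.4% and 8.82%, compared with 22.3% and 10.5%. The highest ratios were 11.3 for the gain of H2A.Zac at YWHAZ, a 14-3-3 protein that retains FOXO proteins in the cytoplasm, and 16.4 for its loss at BIRC5, an inhibitor of apoptosis and a FOXM1 target. CDK1, the kinase of mitotic entry, lost H2A.Zac with a ratio of 13.2 and H2A.Z with 4.35. Its TSS window also held a gained H2A.Z region with a ratio of 6.51 and an unchanged H2A.Zac region of 1544 bp. Of 22 HMG-box genes outside the SOX family and WNT partners, H2A.Zac was gained at 14 (63.6%) and lost at 5 (22.7%), and H2A.Z was gained at 6 (27.3%) and lost at 1 (4.55%), against the same shares over all genes, and 20 of the 22 had a region. Among those with a region of the mark, H2A.Zac was gained at 14 of 19 (73.7%) and lost at 26.3%, and H2A.Z was gained at 6 of 20 (30%) and lost at 5%. HMGB1, an abundant architectural protein of chromatin, gained H2A.Zac with a ratio of 16.7. TOX, a T cell factor, lost it with a ratio of 38.3.

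Some changed regions of the FOX and SOX genes lay close together in stretches of 1 direction. A run was defined as at least 3 changed regions of 1 mark and direction within a gene and its 5 kb, with gaps of at most 10 kb and no region of the other direction between them. Runs held 22 of the 74 gained (29.7%) and 19 of the 57 lost (33.3%) H2A.Zac regions, compared with 25.3% and 25.01% at all protein-coding genes. For H2A.Z they held 7 of 26 gained (26.9%) and 5 of 19 lost regions (26.3%), compared with 15.6% and 24.96%. These 7 gained regions were 1 run at SOX5 and these 5 lost regions 1 run at SOX18.

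**Figure D4:**
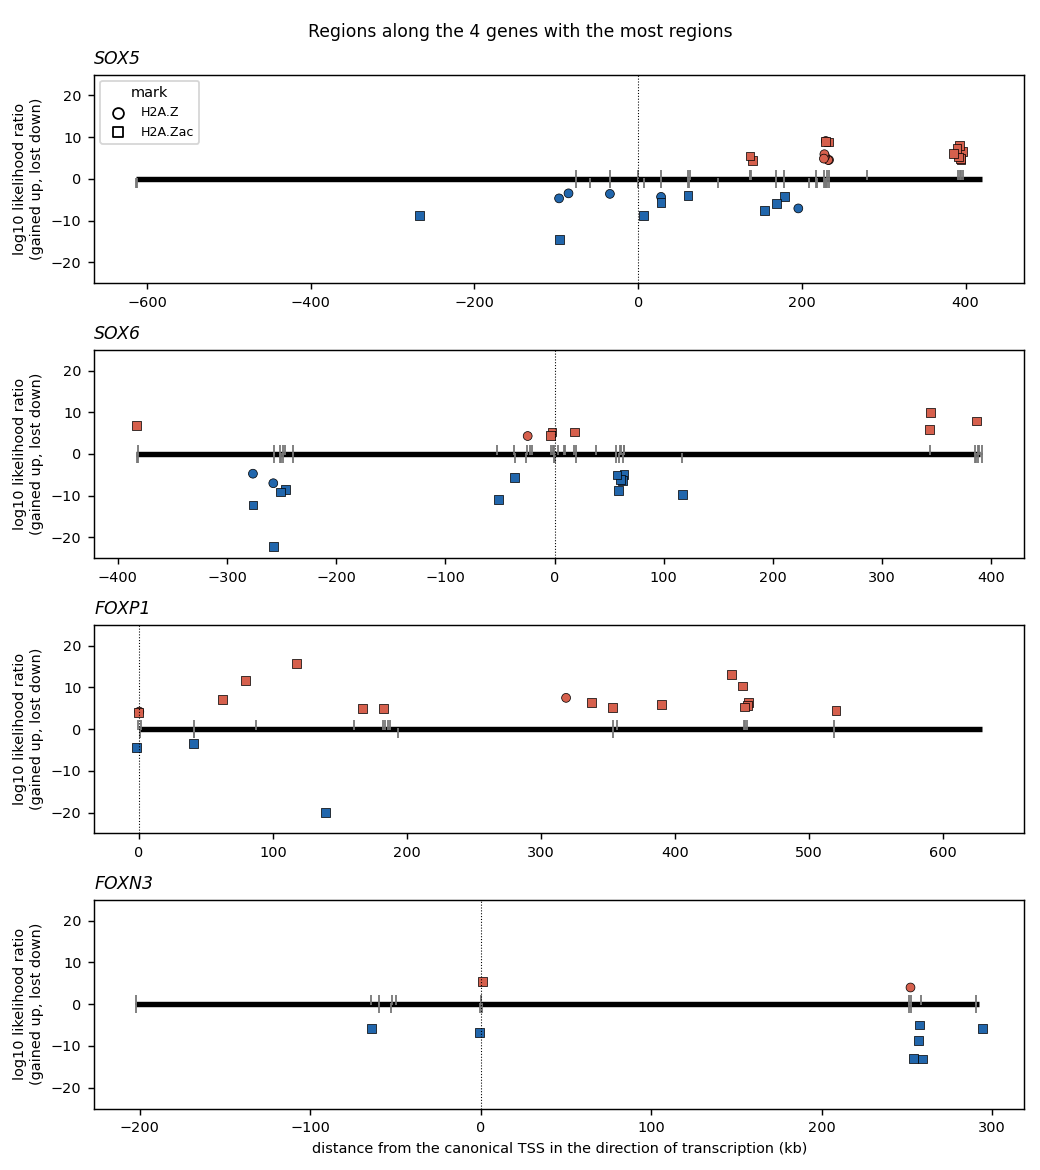
Changed regions along SOX5, SOX6, FOXP1 and FOXN3, placed by the distance of their center from the canonical TSS in the direction of transcription (kb) and by their log10 likelihood ratio, gained upward and lost downward, with H2A.Z as circles and H2A.Zac as squares. The black bar is the gene and the gray ticks are unchanged regions, H2A.Zac above and H2A.Z below the bar. In SOX5 the gained regions lie from 136 to 395 kb downstream of the TSS and the lost ones upstream of them or between them, and in FOXN3 the lost regions cluster at the end of the gene.

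SOX5 and SOX6 are SOX D proteins, which lack a transactivation domain and act together in cartilage, and SOX6 also silences embryonic globin genes in red cell precursors. At SOX5 (minus strand, chr12:23529504-24562544) the gained regions fell into few places. All 7 gained H2A.Z regions lay within 6.66 kb of intron 6, 227 to 233 kb downstream of the canonical TSS, with ratios of 4.53 to 9.08, and 2 gained H2A.Zac regions with ratios of 8.85 and 8.90 lay among them. A second run of 7 gained H2A.Zac regions covered 13.1 kb of introns 10 and 11, with ratios of 4.63 to 8.09 and no changed H2A.Z. The 2 remaining gains were in intron 3. The 5 lost H2A.Z and 8 lost H2A.Zac regions lay from intron 4 to beyond the canonical TSS, where longer SOX5 transcripts start, and the highest lost ratio was 14.6 for H2A.Zac, 95.7 kb upstream of the canonical TSS. Over the TSS itself both marks were unchanged.

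SOX6 (minus strand, chr11:15966449-16739591) was changed mainly by loss, with 12 H2A.Zac regions lost and 7 gained, 2 H2A.Z regions lost and 1 gained. A run of 5 lost H2A.Zac regions covered 6.83 kb of intron 3, 57.1 to 63.3 kb downstream of the canonical TSS, with ratios of 4.89 to 8.83, and the gains lay at both ends of the gene and near the canonical TSS. The highest lost ratio of all FOX and SOX regions, 22.1, belonged to an H2A.Zac region at chr11:16613659-16614444, 257 kb upstream of the canonical SOX6 TSS and within the SOX6 gene as annotated over all its transcripts. H2A.Z was lost there as well, with a ratio of 7.004. This place is within 1 kb of a TSS of C11orf58, and the region cannot be assigned to SOX6 rather than to C11orf58 by position. A second pair of lost regions, 276 kb from the TSS, had ratios of 12.2 for H2A.Zac and 4.72 for H2A.Z. Within 1 Mb around SOX6, 3 of 17 H2A.Zac changes were gains.

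The 200 bases at the center of the lost SOX6 region, chr11:16613951-16614150 (hg38, plus strand), overlap no annotated exon and contain the letters GGGCGG, in overlapping copies, CCAAT and TATAAA, in capitals. They are shown as the center of the region with the highest lost ratio.
SOX6 region: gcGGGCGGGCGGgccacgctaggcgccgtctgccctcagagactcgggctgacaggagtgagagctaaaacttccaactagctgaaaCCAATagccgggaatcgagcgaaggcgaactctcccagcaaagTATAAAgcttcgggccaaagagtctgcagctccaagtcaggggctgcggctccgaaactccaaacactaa

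FOXP1, which is needed for B cell development and monocyte differentiation, was changed mainly by gain. At FOXP1 (minus strand, chr3:70954693-71583978), H2A.Zac was gained in 15 of 33 regions and lost in 3, and H2A.Z was gained in 2 of 8 regions and lost in none. Both marks were gained at the TSS, with ratios of 4.18 for H2A.Z and 4.06 for H2A.Zac, but both of these regions lay mostly inside unchanged regions of the same mark. The gains with the highest ratios were in introns 3, 6 and 2, with 15.7, 13.1 and 11.6. A run of 5 gained regions covered 14.6 kb of intron 6. In contrast, a 932-bp region in intron 3, chr3:71443894-71444825, lost H2A.Zac with a ratio of 20.1, and the region with the ratio of 15.7 was gained in the same intron. Within 1 Mb around FOXP1, 21 of 46 H2A.Zac changes were gains, and all 7 H2A.Z changes were losses.

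The 200 bases at the center of the lost intron 3 region, chr3:71444259-71444458 (hg38, plus strand, intronic in FOXP1), are shown because its ratio was the highest in FOXP1 and its direction was the opposite of most of the gene. The letters ACAATG, a core SOX site, are in capitals.
FOXP1 region: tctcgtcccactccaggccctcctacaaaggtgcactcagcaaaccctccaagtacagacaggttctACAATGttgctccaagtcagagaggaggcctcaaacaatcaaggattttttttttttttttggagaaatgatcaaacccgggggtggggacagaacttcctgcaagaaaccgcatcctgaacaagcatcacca

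FOXN3, a repressor linked to cell cycle checkpoints, had 7 H2A.Zac regions lost and 1 gained, whereas its 1 changed H2A.Z region was gained with a ratio of 4.06. Of the lost regions, 4 lay in 5.84 kb of the last exon, exon 6, 253 to 259 kb from the canonical TSS, with ratios of 4.98 to 13.1. Within 1 Mb around FOXN3, 13 of 21 H2A.Zac changes were gains. FOXK1, a repressor of autophagy genes, gained 6 H2A.Zac regions and lost 2. The highest ratio, 17.2, was in exon 1 from 568 bp downstream of the TSS. A region upstream of the TSS was lost with a ratio of 3.91. An unchanged H2A.Zac region of 1342 bp spanned the TSS between them. The 2 gained regions downstream of FOXK1, with ratios of 7.29 and 11.04, lay within 1 kb of a TSS of AP5Z1.

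The highest ratio of any FOX or SOX region was found at SOX30 (minus strand, chr5:157625679-157671480). A 1069-bp H2A.Zac region downstream of the gene, chr5:157623666-157624734, was gained with a ratio of 47.7, and an H2A.Z region in exon 5 was gained with a ratio of 16.5, without overlap between them. SOX30 had no region at its TSS. All 29 changed H2A.Z and all 33 changed H2A.Zac regions within 1 Mb around SOX30 were gained. As at SOX18, the regions around the gene shared its direction, and a difference in copy number between the clones cannot be told apart from a change of the marks. The center of the H2A.Zac region, chr5:157624100-157624299 (hg38, plus strand), is intergenic, is 34.0% GC and holds none of the motifs searched.
SOX30 region: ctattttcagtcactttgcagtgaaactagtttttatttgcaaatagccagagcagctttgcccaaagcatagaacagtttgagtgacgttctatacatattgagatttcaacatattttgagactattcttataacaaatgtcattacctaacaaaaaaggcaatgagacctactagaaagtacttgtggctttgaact

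At FOXN1 (plus strand, chr17:28506243-28538900) H2A.Zac was gained with a ratio of 19.6 in a region of 1296 bp over exon 3 and its introns, chr17:28524628-28525923, which lies within 1 kb of another FOXN1 TSS and in the overlapping gene RSKR. H2A.Z was gained inside it with a ratio of 4.62. FOXB1, a factor of the hypothalamus, gained both marks in exon 2 with ratios of 5.51 for H2A.Z and 12.4 for H2A.Zac, and FOXL2, which maintains the ovary, gained both at the end of its exon with 6.14 and 7.01. Neither had a changed region at its TSS. FOXC1 gained H2A.Zac alone, with a ratio of 5.52.

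FOXH1, the partner of SMAD proteins in Nodal signaling, and FOXL1, a factor of gut mesenchyme, changed in both directions within a few kilobases. FOXH1 lost H2A.Zac with a ratio of 12.6 and H2A.Z with 8.27 in a region 3.29 kb upstream of its TSS, and gained H2A.Zac with a ratio of 9.64 and H2A.Z with 4.47 between that region and the TSS. Both places lie within 1 kb of a TSS of PPP1R16A. At the FOXH1 TSS, 2 further H2A.Zac regions were lost, with ratios of 4.84 and 3.27. The first also lies within 1 kb of a TSS of PPP1R16A, and the second lies inside an unchanged H2A.Zac region. FOXL1 gained an H2A.Zac region of 280 bp with a ratio of 7.65 between 2 lost regions with ratios of 5.65 and 5.26. The lost region with the ratio of 5.26 has 98.9% of its length inside an unchanged H2A.Zac region. SOX12 gained H2A.Z with a ratio of 3.77 and H2A.Zac with 9.14 in its exon and lost H2A.Zac upstream with 5.03. SOX13 gained H2A.Z at its TSS with a ratio of 4.35 and lost H2A.Zac downstream of the gene with 6.40.

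Counting each gene once, H2A.Zac was changed at 38 of the 64 genes (59.4%), compared with 72.2% of all protein-coding genes. The changes were gains alone at 17 genes (26.6%; all genes, 29%), losses alone at 11 (17.2%; all genes, 17.3%) and of both directions at 10 (15.6%; all genes, 25.9%). H2A.Z was changed at 24 genes (37.5%; all genes, 40.4%). Gains alone were found at 14 of them (21.9%; all genes, 18.6%), losses alone at 7 (10.9%; all genes, 16.7%) and both directions at 3 (4.69%; all genes, 5.09%), FOXH1, SOX5 and SOX6. At 6 genes (9.38%; 95% interval, 4.37 to 18.98%) all listed H2A.Zac regions were gained, compared with 2.82% of all protein-coding genes. They were FOXB1, FOXC1, FOXJ1, FOXN1, FOXN4 and SOX30, with 1 or 2 H2A.Zac regions each. The background was not limited to genes with so few regions, and the difference was not tested. At no gene were all listed H2A.Zac regions lost, compared with 3.44% of all genes.

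Where changes of the marks coincided, they had the same direction, as was nearly always so at other genes. Of the 19 lost H2A.Z regions, 14 (73.7%) had at least 25% of their length in lost H2A.Zac regions, and of the 26 gained ones, 16 (61.5%) in gained H2A.Zac regions, compared with 70.3% and 66.7% at all protein-coding genes. None lay in H2A.Zac regions of the other direction, and at all protein-coding genes the share that did was 0.0978% for H2A.Z losses and 0.0861% for H2A.Z gains. From the other side, 11 of 57 lost (19.3%) and 11 of 74 gained (14.9%) H2A.Zac regions coincided with H2A.Z changed the same way, compared with 27.2% and 17.7%. Gained H2A.Zac regions lay on any listed H2A.Z in 31 of 74 cases (41.9%), compared with 59.3% at all protein-coding genes, and lost ones in 36 of 57 (63.2%), compared with 54.9%. These comparisons were not matched for position. Of the 74 gained regions, 58 lay over 1 kb from the gene's canonical TSS and 34 lay in introns. At all protein-coding genes, 9249 of 17251 gained H2A.Zac regions lay over 1 kb from any canonical TSS. Opposite changes of the marks at 1 gene, as at FOXN3, FOXO6, FOXP1, SOX5, SOX6, SOX12 and SOX13, were thus in separate places.

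Changed and unchanged regions of 1 mark often overlapped. Of the gained H2A.Zac regions 45 of 74 (60.8%) touched an unchanged H2A.Zac region and 8 (10.8%) had over 50% of their length in one. Of the lost ones 28 of 57 (49.1%) touched one and 7 (12.3%) had over 50% in one. Over all protein-coding genes 60.1% of the gained and 41.03% of the lost H2A.Zac regions touched one, and 15.1% and 10.5% had over 50% in one. For H2A.Z, 13 of 26 gained (50%) and 7 of 19 lost regions (36.8%) touched an unchanged H2A.Z region, compared with 51.3% and 39.04%. No lost region overlapped a gained region of the same mark.

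Genes with gains alone and genes with losses alone were also compared with their surroundings. Among the genes whose changed H2A.Zac regions were all gained, a median of 53.8% of the changed regions within 1 Mb outside the gene were gained, and among the genes with losses alone the median was 54.5%. For H2A.Z the medians were 36.9% and 27.3%. SOX18 and SOX30 lay at the extremes, with 0% and 100% gained around them in both marks.

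**Figure D5:**
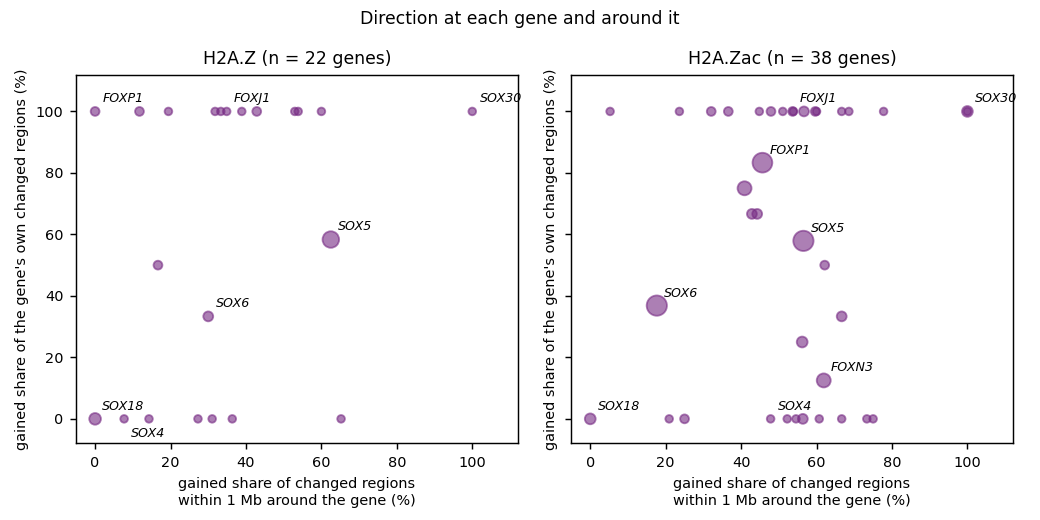
Share of each gene's changed regions that were gained (vertical axis, %) against the gained share of the changed regions within 1 Mb outside the gene and its 5 kb (horizontal axis, %), for the 22 genes in H2A.Z and 38 in H2A.Zac with a changed region and at least 5 changed regions around. Point area grows with the number of changed regions in the gene. SOX18 lies at 0% on both axes and SOX30 at 100%, whereas genes with gains alone or losses alone for H2A.Zac are spread over much of the horizontal axis.

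The sequence upstream of the genes was compared by its base content and by short motifs. The 250 bases upstream of the canonical TSS had a median GC content of 67.2% and a median observed to expected CpG ratio of 0.779 in the 64 genes, against 63.2% and 0.749 in all 20046. The CpG ratio was 0.725 in the 22 genes without a region, 0.816 in the 42 with one, 0.776 in the 11 genes that lost H2A.Zac at the TSS and 0.948 in the 14 that gained it. Searched on both strands, the letters GGGCGG were found upstream of 44 genes (68.8%; all genes, 59.0%) and CCAAT upstream of 28 (43.8%; 34.3%). The E-box CACGTG was found upstream of 7 (10.9%; 7.86%), TATAAA upstream of 7 (10.9%; 9.34%), the GATA letters AGATAA upstream of 4 (6.25%; 6.54%), the forkhead letters TGTTTAC upstream of 2 (3.12%; 2.09%) and the SOX letters ACAATG upstream of 3 (4.69%; 6.26%). In the central 200 bases of H2A.Zac regions away from the TSS, ACAATG was found in 7 of 44 lost regions (15.9%) and 8 of 58 gained regions (13.8%), compared with 7.77% and 8.54% of those at all protein-coding genes, and in 12 of 111 unchanged regions (10.8%; all genes, 7.59%). In H2A.Z regions it was found in 1 of 15 lost (6.67%), 1 of 17 gained (5.88%) and 7 of 77 unchanged regions (9.09%), compared with 6.71%, 9.10% and 6.65% at all protein-coding genes. TGTTTAC was found in 1 lost (2.27%; all genes, 2.14%) and 4 gained H2A.Zac regions (6.90%; 3.85%), and in 0 lost (all genes, 2.42%) and 1 gained H2A.Z region (5.88%, against 4.57%). In the same lost H2A.Zac regions, TATAAA and AGATAA were each found in 13.6% (all genes, 8.51% and 9.37%). In the gained ones both shares, 10.3% and 13.8%, were below those at all genes. CACGTG was found in 0 lost and 0 gained regions (all genes, 6.67% and 1.62%) and CCAAT in 22.7% and 25.9% (19.7% and 22.1%). Median GC content was 48.5% in lost and 43.75% in gained regions, against 51% and 46.5%. The 2 sets of regions are not defined alike, and no difference was tested. A match is a description of these letters and not a bound site.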

How the data were processed

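H2A.Z and H2A.Zac ChIP-seq was made in 12 libraries, 2 replicates each of input and both marks in the WT and ΔTRRAP lines. The authors aligned reads to hg38 with Bowtie2 2.4.5, called peaks with MACS2 2.2.7.1 and, after merging replicates, contrasted the WT and ΔTRRAP lines with its bdgdiff command. Regions with under 25% of their length in reproducible peaks (IDR cutoff, 0.05) were dropped by the authors. The score in the deposited lists used here is a log10 likelihood ratio per region, at least 3 in changed regions, which was used here to rank and filter. No count, signal or value per replicate was used, so no test was made and the depth is unknown.

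Genes, exons and canonical TSSs came from GENCODE release 44 (the study used release 32). Gene windows were 5 kb and TSS windows 1 kb to each side. Marks were compared at an overlap of at least 25% of a region's length, and surroundings were 1 Mb to each side. Sequences came from hg38, with 44 of the 64 promoters in the RefSeq table. Intervals were Wilson intervals from scipy 1.17.1. Python 3.11.15, numpy 2.4.6, pandas 2.3.3 and matplotlib 3.10.9 were used. Overlap counting was tested on simulated data, in which 8016 overlaps matched bedtools 2.31.1 with 0 differences.

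The genes and lists were chosen with earlier results of these data known. The genes named are, for each mark and direction, the 5 with the highest ratio within 1 kb of the canonical TSS and the 5 with the highest farther away, genes with both directions in a mark or opposite directions between marks, genes without a region, and FOXO1, FOXO3, FOXO4, FOXM1, FOXP1, SOX4 and SOX6. FOXC1, FOXP3 and the named genes of the FOXO and FOXM1 list, the HMG-box list and the cell type markers were named after their values were seen. Alternatives tried were other windows, ratio cutoffs of 5 and 10, a minimum overlap, any annotated TSS, base pairs, merging within 1 kb, and leaving out the 2 longest genes, chromosomes 19 and 20 or regions on other genes. Gene expression, inputs and signal tracks were not analysed here. Values of 1 FOX gene are in the counts but are not reported here.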

Additional observations from a re-analysis of the deposited data

How the results depend on the processing

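Under the alternatives tried, the gained share of the changes ranged from 54.1 to 66.7% in H2A.Z (57.8% as reported) and from 50 to 60.2% in H2A.Zac (56.5%). At all protein-coding genes, under the main settings, it was 48.6% in H2A.Z and 55.8% in H2A.Zac. The H2A.Zac share at FOX and SOX genes was 50% when regions on another protein-coding gene were left out. This also drops the FOXP1 regions, as a readthrough gene covers them. Of the values recomputed, 93 stayed within the counting interval of the value reported or, for counts of genes, within 1.5 times of it, while 19 did not. The ratio cutoff moved most. With a cutoff of 5, the changed share fell from 28.1 to 14.8% for H2A.Z and from 47.1 to 40.7% for H2A.Zac, and with a cutoff of 10 to 2.54 and 15.5%. Genes with H2A.Z gained at the TSS fell from 8 to 3 and 1, and genes with H2A.Z lost there from 3 to 1 and 1. Genes with H2A.Zac lost at the TSS fell from 11 to 7 and 2, and with H2A.Zac gained there, at a cutoff of 10, from 14 to 5. Over the gene and 5 kb, genes with H2A.Z gained fell from 17 to 8 and 2 and with H2A.Z lost from 10 to 6 and 1. At a cutoff of 10, genes with H2A.Zac gained fell from 27 to 9 and with H2A.Zac lost from 21 to 9. A stricter cutoff keeps fewer changed regions by construction. In base pairs, 15.3% of the H2A.Z length was changed, since changed regions are narrower. An alternative chosen after seeing the data left out changed regions with over 50% of their length in an unchanged region of the same mark, and left 4 genes with H2A.Z gained at the TSS. No paired analysis was possible because the lists merge the replicates of each line. No replicate could be left out for the same reason, and the depth, which limits which regions reach the cutoff, is unknown.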
